A study of Mus musculus with 4 samples.

Results

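Sestrins, REDD proteins, AMPK beta subunits and the TSC proteins are brakes, or parts of brakes, on the growth kinase complex mTORC1, and 9 genes that encode them were followed here: Sesn1, Sesn2, Sesn3, Ddit4 (REDD1), Ddit4l (REDD2), Prkab1, Prkab2, Tsc1 and Tsc2. They were found by name among the non-control spots of the array, which measured 39429 probes for 31704 genes or transcripts. Each of the 9 genes had 1 probe. RNA came from mouse embryonic fibroblasts (MEFs) that were p53+/+ (wild-type: WT) or p53-/-, and each genotype was analysed without treatment and with doxorubicin, an anthracycline that intercalates into DNA and traps topoisomerase II. The dose and the time of doxorubicin for these arrays are not given in the sources used here, nor are the strain, the embryos or the number of cultures. The loss of p53 is in all cells of the p53-/- MEFs, which are cultured fibroblasts and not a tissue.

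There was 1 array per condition and all 4 arrays lay on 1 slide, so a difference between conditions has no replicate check and no p-value was calculated. A level below is a scaled signal, the signal of the probe divided by the 75th percentile of its array, and 1 means equal to that percentile. The error after a level is the SD that the scanner software's error model gives the spot. It includes a multiplicative part of 10%, covers the measurement of the spot only and leaves out the spread between cultures, treatments and labelings. A ratio between arrays is given on the log2 scale, where the same model gave an SD of about 0.20 for most of the 9 genes. Levels of different genes were not compared with each other, since each probe has its own brightness.

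In healthy cells mTORC1 drives protein synthesis and growth on the lysosome when amino acids, growth factors and energy are at hand. Sestrins bind the GATOR2 complex and thereby keep the RAG GTPases from recruiting mTORC1, and they also act through the energy sensor AMPK. REDD proteins act through the TSC complex, whose subunit tuberin (Tsc2) turns off the small GTPase RHEB, the direct activator of mTORC1, and is held stable by hamartin (Tsc1). Prkab1 and Prkab2 encode the alternative beta subunits of AMPK, which bind glycogen and hold the catalytic alpha and the nucleotide-sensing gamma subunit together. Sesn1 and Sesn2 are known targets of p53, and Ddit4 is known to respond to DNA damage, hypoxia, glucocorticoids and the integrated stress response.

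The promoters of the genes whose levels differed most between the 4 arrays are shown with that of Sesn1, so that their letters can be set beside the values. RefSeq (GRCm38.p6) held 10 promoters for the 9 genes, each covering 250 bases before to 50 bases after a transcription start. Capitals mark matches, on either strand, to the CCAAT box, the GC box (GGGCGG), the TATA box (TATAAA), the hypoxia response core (ACGTG), the antioxidant response element (TGACNNNGC), the CRE core (TGACG, cAMP response element), the FoxO element (GTAAACA) or the p53 half-site (the 10-base consensus of the p53 response element), and each line is written 5′ to 3′ on the strand of the gene.
Ddit4l, chr3:137623422-137623721, plus strand: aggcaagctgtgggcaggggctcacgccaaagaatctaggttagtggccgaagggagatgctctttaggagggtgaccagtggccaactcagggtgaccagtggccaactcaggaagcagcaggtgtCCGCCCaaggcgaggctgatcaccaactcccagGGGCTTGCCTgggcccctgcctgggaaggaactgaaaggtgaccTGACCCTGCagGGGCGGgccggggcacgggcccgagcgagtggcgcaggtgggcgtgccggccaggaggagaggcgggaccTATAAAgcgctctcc
Sesn2, chr4:132510407-132510706, minus strand: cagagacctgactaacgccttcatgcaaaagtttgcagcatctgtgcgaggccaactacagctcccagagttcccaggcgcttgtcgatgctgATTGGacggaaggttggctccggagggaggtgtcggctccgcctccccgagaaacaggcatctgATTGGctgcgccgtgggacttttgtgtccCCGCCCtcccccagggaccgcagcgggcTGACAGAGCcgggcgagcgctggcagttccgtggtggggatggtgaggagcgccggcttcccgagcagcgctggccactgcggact
Ddit4, chr10:59951721-59952020, minus strand: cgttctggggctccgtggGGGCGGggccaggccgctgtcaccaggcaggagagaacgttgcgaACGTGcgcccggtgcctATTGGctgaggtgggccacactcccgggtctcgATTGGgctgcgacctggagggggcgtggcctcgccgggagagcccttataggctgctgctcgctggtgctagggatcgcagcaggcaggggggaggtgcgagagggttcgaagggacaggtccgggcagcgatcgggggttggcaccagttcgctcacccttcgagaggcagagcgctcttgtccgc
Sesn1, second of its promoters, chr10:41887189-41887488, plus strand: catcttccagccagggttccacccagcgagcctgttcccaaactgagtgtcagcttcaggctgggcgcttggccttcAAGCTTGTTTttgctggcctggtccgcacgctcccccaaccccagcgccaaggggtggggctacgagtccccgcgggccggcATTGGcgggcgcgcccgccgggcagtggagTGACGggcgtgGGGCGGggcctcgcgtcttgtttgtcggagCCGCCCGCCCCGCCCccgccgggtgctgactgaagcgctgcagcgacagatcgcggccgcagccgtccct

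A p53 half-site without a mismatch was found in the promoter of Ddit4l, from -90 to -81 relative to the start, and in the second promoter of Sesn1, from -173 to -164. The consensus reads the same on both strands, so any match to it is found on either strand. At least 1 match was held by 8.36% of all 32851 promoters. A full p53 element joins a pair of such half-sites, and no second match was found in either window. The Sesn2 promoter held the CCAAT box at -157 to -153 and again at -93 to -89, a GC box and, at -36 to -28, the antioxidant response element, which was also found at -46 to -38 in Ddit4l and in 12.4% of all promoters. In Ddit4, the hypoxia response core (in 19.6% of all promoters) was found at -187 to -183, beside CCAAT boxes at -170 to -166 and -137 to -133. The CCAAT box occurred in 37.4%, the GC box in 35.7%, the TATA box in 13.6%, the CRE core in 20.8% and the FoxO element in 3.65% of all promoters. The FoxO element was found at 23 to 29 in the first promoter of Sesn1, which is not shown and held no p53 half-site. Matches to TGATGNAA, the C/EBP-ATF element (3.97% of all promoters), or to the E-box CACGTG (7.15%) were found in none of the 10 promoters. The promoters of Prkab1 and Tsc2 held none of the motifs searched. A match says only that these letters are present.

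As a check of the labels, the p53 gene itself (Trp53) had scaled signals of 0.592 without and 1.89 with doxorubicin in WT MEFs, and of 0.235 without and 0.224 with doxorubicin in p53-/- MEFs. Whether its probe lies in the deleted part of the gene is not given in the sources used here. Cdkn1a, the p53 target that encodes the cell cycle inhibitor p21, had scaled signals of 13.8, 58.3, 0.519 and 2.44 in the same order. All 12 fibroblast markers were well above background on all 4 arrays, with a summed scaled signal of 591 to 908. With doxorubicin, 5 of the 12 were at least 2-fold lower in WT MEFs (Lum, Pdgfra, Pdgfrb, Postn and Dcn, with log2 ratios of -4.81 to -1.30) and 2 in p53-/- MEFs (Lum at -2.34 and Pdgfrb at -1.73). Over all genes measured, 10.4% were at least 2-fold lower in WT and 6.89% in p53-/- MEFs. Of 8 leukocyte markers 5 to 7 were well above background (summed 14.7 to 20.0), and of 6 endothelial markers 2 or 3 (summed 2.39 to 4.23). Most of these sums came from Itgam (11.7 to 17.4) and Kdr (2.20 to 4.09). The leukocyte marker Ptprc had signals of 65.3 to 104, weaker than the brightest negative control of each array. Of 6 epithelial markers 3 to 5 were well above background. Their summed level was 6.72 and 6.92 without and 30.2 and 34.4 with doxorubicin in WT and p53-/- MEFs, most of it from the keratin genes Krt18 and Krt19, while Epcam was not well above background on any array. The part of these marker changes in the results below was not tested. The 75th percentile of the arrays was a signal of 1819 to 2421, and 56.94% to 62.92% of the probes were well above background. All 9 genes were well above background on all 4 arrays. Ddit4l and Tsc2 were nevertheless weaker than the brightest of 153 negative control spots (signal 250.1) in untreated p53-/- MEFs, with signals of 213 and 138.

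Ddit4l, Sesn2 and Ddit4 had the same order of levels, highest in WT MEFs with doxorubicin, followed by WT MEFs without it, p53-/- MEFs without it and, lowest, p53-/- MEFs with doxorubicin. The other 6 genes did not share that order. For Ddit4 the order of the WT arrays was not resolved. They differed by 0.15 on the log2 scale, less than 2 SD of the error model, and by -0.12 with scaling to the array median. For Ddit4l the order of the p53-/- arrays rests on dim spots, with signals of 213 without and 147 with doxorubicin. The first is below the brightest negative control of its array (250.1). Between the highest and the lowest array, the level of Ddit4l differed 80.8-fold, that of Sesn2 8.42-fold and that of Ddit4 8.28-fold. The factor for Ddit4l has the second of these dim spots as its denominator. The remaining genes spanned 1.13-fold (Tsc1) to 2.55-fold (Prkab1).

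**Figure D1:**
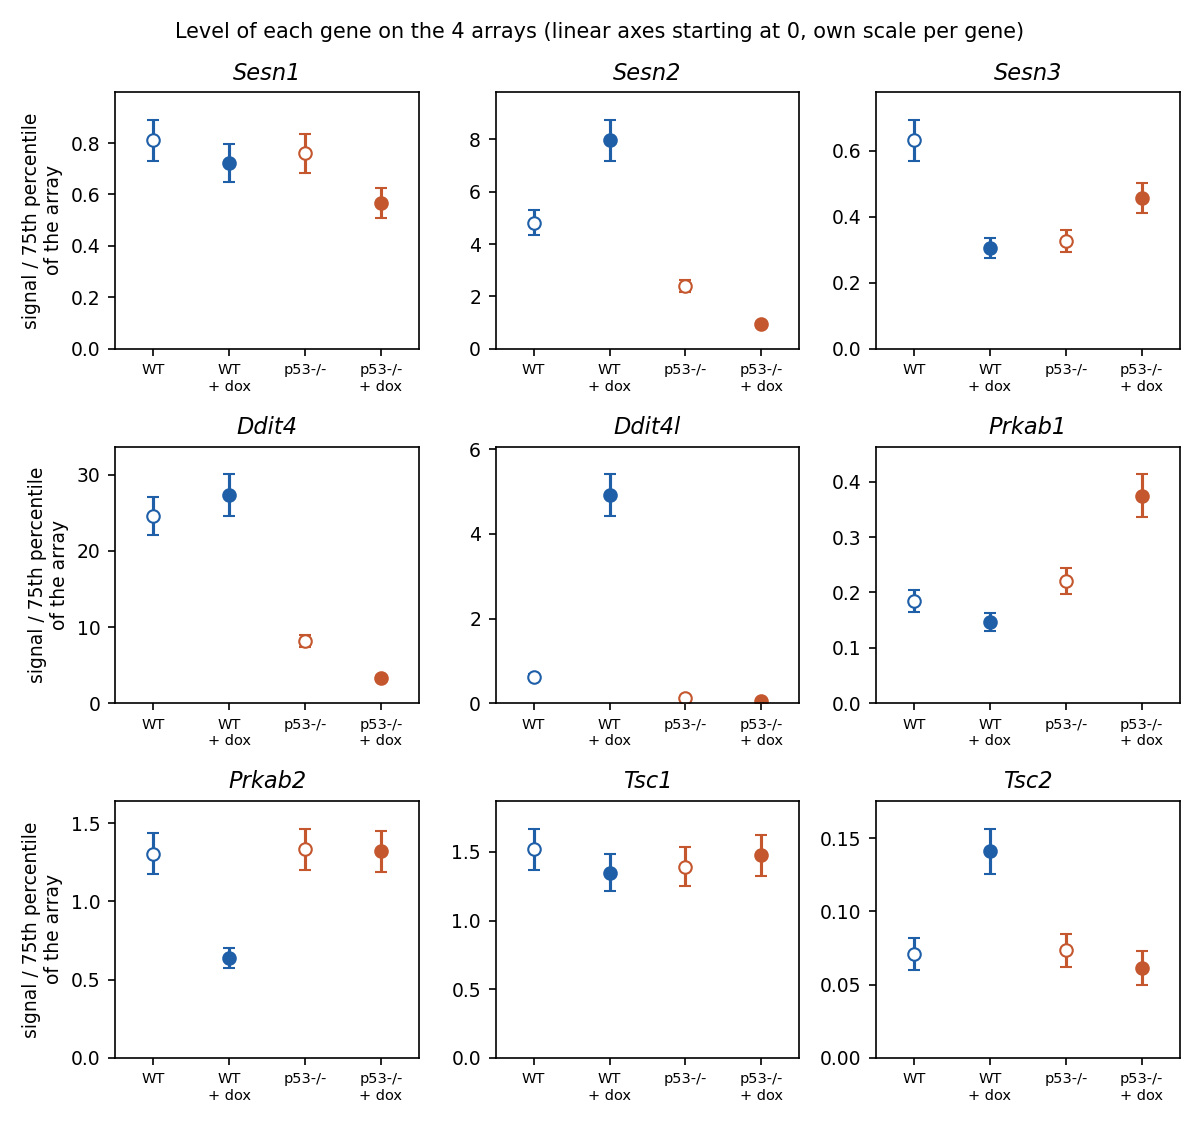
Scaled signal of the 9 genes (vertical axes, signal divided by the 75th percentile of the array, linear from 0, own scale per gene) on the 4 arrays (horizontal axis; blue WT, orange p53-/-, open untreated, filled doxorubicin). Points are single arrays and bars the SD of the spot by the scanner software's error model. Sesn2, Ddit4 and Ddit4l are highest in doxorubicin-treated WT and lowest in doxorubicin-treated p53-/- MEFs, though the WT points of Ddit4 lie within 2 SD of each other. The p53-/- points of Ddit4l rest on dim spots. Prkab1 is highest in doxorubicin-treated p53-/- MEFs, and Tsc1 is nearly level.

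Among the sestrins, Sesn2 differed most. Its probe lies at chr4:132048858-132048917 on the minus strand (mm9). Sesn2 had scaled signals of 4.82 ± 0.48 without and 7.96 ± 0.80 with doxorubicin in WT MEFs, and of 2.40 ± 0.24 without and 0.945 ± 0.095 with doxorubicin in p53-/- MEFs. Each neighboring pair in this order differed by more than 2 SD of the error model. With doxorubicin the level was 1.65-fold higher in WT MEFs, a log2 ratio of 0.73 ± 0.20 that did not reach 2-fold and was 0.45 with scaling to the array median. In p53-/- MEFs it was 2.54-fold lower with doxorubicin (-1.34 ± 0.20), and 604 of 16950 genes had a lower ratio there. Sesn2 was 2.01-fold lower in untreated p53-/- than in untreated WT MEFs (-1.01 ± 0.20), which lies at the 2-fold limit (-0.96 with normexp background correction). In doxorubicin-treated p53-/- MEFs it was 8.42-fold lower than in doxorubicin-treated WT MEFs (-3.07 ± 0.20). The response in WT exceeded that in p53-/- MEFs by 2.07 ± 0.29 on the log2 scale, and 253 of 16513 genes had a larger difference. In RNA from whole cultures, fewer cells with a transcript and less of it per cell cannot be told apart.

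Sesn1, although known as a p53-induced gene, varied little between the 4 arrays, with a range of 1.43-fold. The probe (chr10:41628012-41628071, plus strand, mm9) gave levels of 0.810 ± 0.081 in WT and 0.761 ± 0.076 in p53-/- MEFs without treatment, and of 0.722 ± 0.072 in WT and 0.567 ± 0.057 in p53-/- MEFs with doxorubicin. None of the neighboring levels was more than 2 SD of the error model apart. The log2 ratio with doxorubicin was -0.17 ± 0.20 in WT and -0.42 ± 0.21 in p53-/- MEFs, a difference of 0.26 ± 0.29. The p53-/- ratio was just past 2 SD of the error model and was -0.72 with scaling to the array median. Sesn1 has the second promoter shown above, and which of its transcripts the single probe detects was not tested.

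Sesn3, known as a target of FoxO factors, went the other way from Sesn2. Its levels dropped from 0.631 ± 0.063 to 0.305 ± 0.031 with doxorubicin in WT MEFs and were 0.327 ± 0.034 without and 0.456 ± 0.047 with it in p53-/- MEFs (probe at chr9:14130452-14130511, plus strand, mm9). The untreated WT array was highest, and the lowest pair, doxorubicin-treated WT and untreated p53-/-, differed by 0.10 on the log2 scale, less than 2 SD of the error model. With doxorubicin Sesn3 was 2.07-fold lower in WT MEFs (-1.05 ± 0.21). This lies close to the 2-fold limit and became -0.94 with normexp. In p53-/- MEFs the ratio was 0.48 ± 0.21. The difference of the responses was -1.53 ± 0.29, with 769 of 16513 genes lower, and Sesn2 and Sesn3 thus lay on opposite sides of an equal response.

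Without treatment, the REDD genes had the largest genotype differences of the 9 genes. Ddit4l had scaled signals of 0.628 ± 0.063 and, with doxorubicin, 4.92 ± 0.49 in WT MEFs, against 0.113 ± 0.014 and, with doxorubicin, 0.0609 ± 0.011 in p53-/- MEFs (probe at chr3:137290927-137290986, plus strand, mm9). All 3 neighboring pairs in the order of its levels were more than 2 SD of the error model apart. Doxorubicin-treated WT MEFs stood 7.83-fold above untreated WT MEFs (2.97 ± 0.20), and 192 of 17513 genes had a higher ratio. In p53-/- MEFs the ratio was -0.89 ± 0.32. This value rests on dim spots, with signals of 213 and 147, and was -0.56 with normexp and -1.19 with scaling to the array median.

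Without treatment Ddit4l was already 5.55-fold lower in p53-/- than in WT MEFs (-2.47 ± 0.23), and 25 of 17286 genes were lower. With doxorubicin the gap widened to 80.8-fold (-6.34 ± 0.30), and only 7 of 17888 genes had a lower ratio. The response in WT exceeded that in p53-/- MEFs by 3.86 ± 0.38, with 32 of 16513 genes higher. With normexp, which pulls dim spots together, this difference was 3.45 and the gap under doxorubicin -5.50. The Ddit4l promoter held the p53 half-site at -90 to -81, and 8.36% of all promoters held at least 1 match. The promoters of Sesn2 and Ddit4 held none, and the second promoter of Sesn1 held a match. A link between the half-site and the levels was not tested.

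Ddit4 differed between the genotypes more than with the drug. Its levels were 24.6 ± 2.5 without and 27.3 ± 2.7 with doxorubicin in WT MEFs, and 8.20 ± 0.82 without and 3.30 ± 0.33 with it in p53-/- MEFs (probe at chr10:59412486-59412545, minus strand, mm9). The WT arrays could not be told apart by the error model, with a log2 ratio of 0.15 ± 0.20 that became -0.12 with scaling to the array median. In p53-/- MEFs the level was 2.48-fold lower with doxorubicin (-1.31 ± 0.20). Ddit4 was 2.997-fold lower in untreated p53-/- than in untreated WT MEFs (-1.58 ± 0.20), with 123 of 17286 genes lower. Between the doxorubicin-treated arrays it was 8.28-fold lower in p53-/- MEFs (-3.05 ± 0.20), nearly the same factor as for Sesn2. The difference of the responses was 1.47 ± 0.29 and came mostly from the p53-/- arrays.

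Both AMPK beta subunit genes were lowest in doxorubicin-treated WT MEFs. Prkab1 (probe at chr5:116464650-116464709, minus strand, mm9) stood at 0.184 ± 0.020 without and 0.147 ± 0.016 with doxorubicin in WT MEFs, and at 0.221 ± 0.024 without and 0.375 ± 0.039 with it in p53-/- MEFs. Among neighboring levels, only the gap between the doxorubicin-treated and the untreated p53-/- array, the highest pair, exceeded 2 SD of the error model. That gap was 1.70-fold (0.77 ± 0.21), against a ratio of -0.32 ± 0.22 in WT MEFs. Under doxorubicin Prkab1 was 2.55-fold higher in p53-/- than in WT MEFs (1.35 ± 0.22). The responses differed by -1.09 ± 0.31, or -0.88 with normexp.

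Prkab2 (probe at chr3:97476843-97476902, plus strand, mm9) was level on 3 arrays, at 1.30 ± 0.13 in untreated WT, 1.33 ± 0.13 in untreated p53-/- and 1.32 ± 0.13 in doxorubicin-treated p53-/- MEFs. In doxorubicin-treated WT MEFs it stood at 0.639 ± 0.064. This array was 2.04-fold below untreated WT (-1.03 ± 0.20, or -0.96 with normexp), while the ratio in p53-/- MEFs was -0.01 ± 0.20. The responses differed by -1.02 ± 0.29, at the 2-fold limit (-0.94 with normexp).

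Of the TSC genes, Tsc1 varied least of the 9. Its levels were 1.52 ± 0.15 in WT and 1.39 ± 0.14 in p53-/- MEFs without treatment, and 1.35 ± 0.135 in WT and 1.48 ± 0.15 in p53-/- MEFs with doxorubicin (probe at chr2:28546610-28546669, plus strand, mm9), and none of its neighboring levels differed by more than 2 SD of the error model. Its log2 ratio with doxorubicin was -0.17 ± 0.20 in WT and 0.08 ± 0.20 in p53-/- MEFs, where scaling to the array median gave -0.215. Tsc2 (probe at chr17:24732882-24732941, minus strand, mm9) was dim, with levels of 0.0710 ± 0.011 without and 0.141 ± 0.016 with doxorubicin in WT MEFs, and of 0.0734 ± 0.011 without and 0.0614 ± 0.012 with it in p53-/- MEFs. The doxorubicin-treated WT array stood above the other three. Its ratio to untreated WT was 1.98-fold (0.99 ± 0.27), just under the 2-fold limit, against -0.26 ± 0.35 in p53-/- MEFs. The WT ratio was 0.71 with scaling to the array median, 0.75 with quantile normalization and 0.67 with normexp. Under doxorubicin Tsc2 was 2.30-fold lower in p53-/- than in WT MEFs (-1.20 ± 0.32). The responses differed by 1.25 ± 0.45, and with normexp the last 2 values were -0.74 and 0.81.

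**Figure D2:**
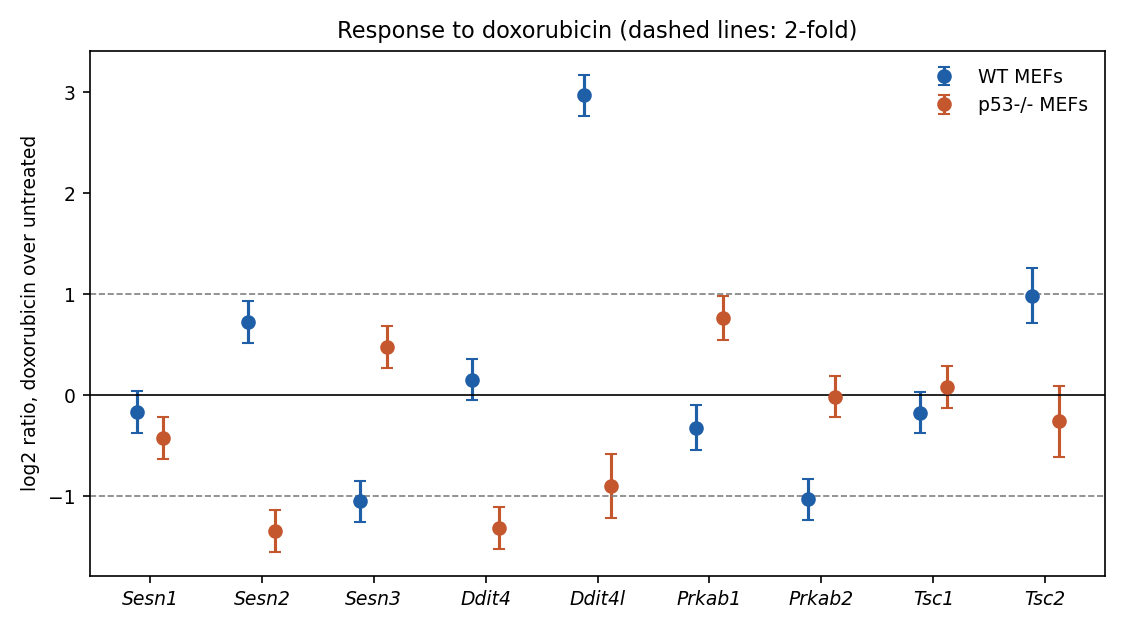
Log2 ratio of doxorubicin-treated over untreated MEFs (vertical axis) for each of the 9 genes (horizontal axis) in WT (blue) and p53-/- MEFs (orange), 1 array per condition; bars are the SD of the ratio by the scanner software's error model and dashed lines mark 2-fold. Ddit4l is the gene past 2-fold upward in WT (2.97), Sesn2 and Ddit4 are past 2-fold downward in p53-/- MEFs (-1.34 and -1.31), and the p53-/- point lies above the WT point for Sesn3, Prkab1, Prkab2 and Tsc1.

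Counted over the 9 genes, doxorubicin-treated WT MEFs had 1 gene at least 2-fold higher (Ddit4l) and 2 at least 2-fold lower (Sesn3 and Prkab2) than untreated WT MEFs. Over all 17513 genes measured on both arrays, 11.0% were at least 2-fold higher and 10.4% at least 2-fold lower. In p53-/- MEFs, 0 of the 9 genes were at least 2-fold higher with doxorubicin and 2 were lower (Sesn2 and Ddit4), beside 9.24% higher and 6.89% lower over 16950 genes. The 2 genes lower in each genotype are 22.2% of the 9, a share that 1 gene more or less moves by 11.1 percentage points. The shares over all genes depend on the scaling. Scaling to the array median moved the median ratio of all genes by -0.28 in WT and -0.30 in p53-/- MEFs, and the share of the calls that were higher then went from 51.4% to 32.1% in WT and from 57.3% to 31.3% in p53-/- MEFs. Under that scaling and under quantile normalization, Ddit4l also passed 2-fold downward in p53-/- MEFs.

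Between the untreated genotypes, 3 of the 9 genes (Sesn2, Ddit4 and Ddit4l) were at least 2-fold lower and 0 at least 2-fold higher in p53-/- MEFs, where 2.61% of 17286 genes were lower and 2.15% higher. The 3 genes are 33.3% of the 9. Under doxorubicin, 4 of the 9 (Sesn2, Ddit4, Ddit4l and Tsc2) were at least 2-fold lower and 2 (Prkab1 and Prkab2) at least 2-fold higher in p53-/- than in WT MEFs, beside 10.3% and 11.9% of 17888 genes. The response to doxorubicin differed at least 2-fold for 7 of the 9 genes. It was higher in WT for Sesn2, Ddit4, Ddit4l and Tsc2, and lower in WT for Sesn3, Prkab1 and Prkab2, beside 8.37% and 9.86% of 16513 genes. These comparisons share arrays, so their counts are not independent of each other. The median of the 9 log2 ratios was -0.17 with doxorubicin in WT, -0.26 with doxorubicin in p53-/-, -0.12 between the untreated and -0.35 between the treated genotypes, where the median of all genes was 0.01, 0.00, -0.00 and 0.00.

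**Figure D3:**
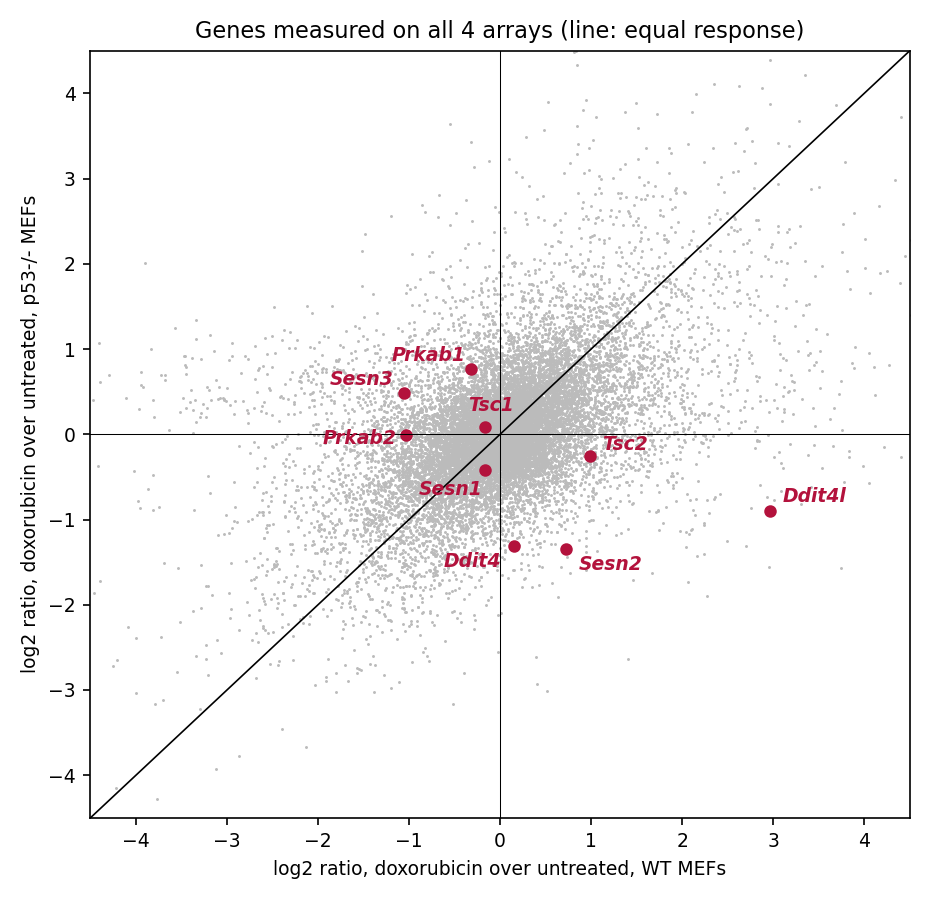
Log2 ratio of doxorubicin-treated over untreated MEFs in WT (horizontal axis) and p53-/- MEFs (vertical axis); grey points are 16465 genes measured on all 4 arrays, 48 more lie outside the axes, and the 9 genes are in red. The diagonal marks an equal response. Ddit4l, Sesn2, Ddit4 and Tsc2 lie below it by 1.25 to 3.86 and Sesn3, Prkab1 and Prkab2 above it by more than 1.

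Processing mattered for genes near the 2-fold limit. All 21 of the 45 ratios that were past 2-fold kept their sign under median scaling, quantile normalization and normexp. With normexp the 2 genes lower in WT with doxorubicin, Sesn3 and Prkab2, dropped just under 2-fold, and the genes whose responses differed at least 2-fold went from 7 to 4 (Sesn2, Sesn3, Ddit4 and Ddit4l).

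**Figure D4:**
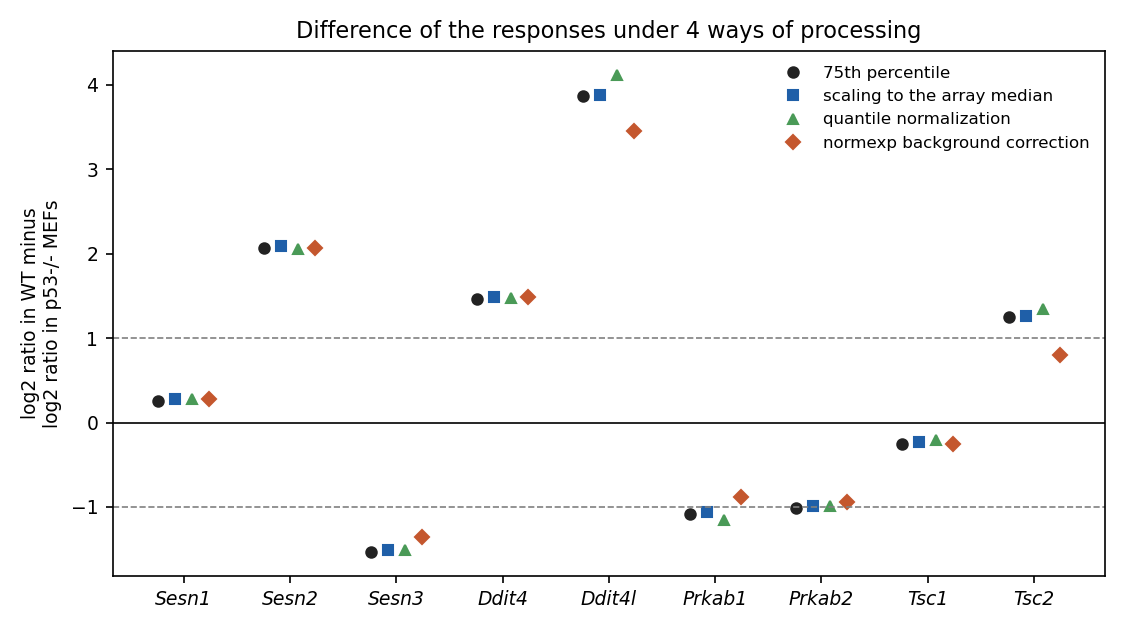
Log2 ratio with doxorubicin in WT minus that in p53-/- MEFs (vertical axis) for the 9 genes (horizontal axis) with 75th percentile scaling (black), median scaling (blue), quantile normalization (green) and normexp background correction (orange); dashed lines mark a 2-fold difference. The direction is the same under all 4 for each gene. Ddit4l moves most, from 3.45 to 4.12, and the orange points of Prkab1, Prkab2 and Tsc2 lie inside the dashed lines.

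The other genes of the pathway were read from lists: 79 genes of AMPK, the TSC complex, mTORC1 and mTORC2, their amino acid and growth factor inputs and their outputs. Of 76 measured in WT MEFs, 5 were at least 2-fold higher with doxorubicin (Prkaa2, Lpin1, Ulk1, Irs2 and Castor1) and 7 lower (Camkk2, Insr, Telo2, Eef2k, Igf1r, Prr5 and Grb10). This is 6.58% and 9.21%, beside 11.0% and 10.4% of all genes. Of 75 measured in p53-/- MEFs, 2 were higher (Irs2 and Rhebl1) and 6 lower, with Igf1r, Grb10, Insr, Eef2k and Rptor among them. This is 2.67% and 8%, beside 9.24% and 6.89% of all genes. The median log2 ratio of the pathway genes was -0.05 in WT and -0.30 in p53-/- MEFs. Between the untreated genotypes 0 of 75 passed 2-fold in either direction, where 3 of the 9 genes did. Over all genes 2.15% were higher and 2.61% lower there. The responses differed at least 2-fold for 6 of 75, higher in WT for Prkaa2, Lpin1, Nprl3, Castor1 and Akt1s1 and lower for Wdr59. This is 6.67% and 1.33%, beside 8.37% and 9.86% of all genes. The same shares over all genes stand beside the counts of the single lists below. No test was run on these lists.

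Among the AMPK subunits, the largest ratio was not that of a beta subunit. Prkaa2, which encodes the catalytic alpha 2 subunit, had signals of 160.1 without and 2330.3 with doxorubicin in WT MEFs, and of 219 without and 191 with it in p53-/- MEFs. Its log2 ratio with doxorubicin was 4.05 in WT and -0.57 in p53-/- MEFs, a difference of 4.62, and 219 is less than the brightest negative control of that array (250.1). Prkaa1, for the other alpha subunit, had ratios of -0.13 and 0.14. The gamma subunit genes Prkag1 and Prkag2 had 0.44 and 0.08 in WT and -0.39 and -0.70 in p53-/- MEFs, while Prkag3 was well above background in doxorubicin-treated WT MEFs only. Of 8 genes for kinases upstream of AMPK and their partners, Camkk2 was lower in WT MEFs (-1.46; -0.67 in p53-/-) and none of the others passed 2-fold in either genotype.

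Around the TSC complex, Rheb had ratios of -0.61 and -0.39 and Tbc1d7, the gene of the third TSC subunit, -0.38 and -0.56 in WT and p53-/- MEFs. Rhebl1, a relative of Rheb, was higher in p53-/- MEFs (1.08; 0.55 in WT). The gene of the kinase itself, Mtor, had ratios of -0.10 and 0.12. Of 11 genes for mTORC1 and mTORC2 subunits and assembly factors, 0 were higher and 2 lower in WT MEFs, from -1.35 (Telo2) to 0.77 (Prr5l), and 1 was lower in p53-/- MEFs, where Rptor, the substrate-binding subunit of mTORC1, had -1.05 and the inhibitor Deptor 0.65.

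In the amino acid branch, on which sestrins act, 13 genes of GATOR1, GATOR2, KICSTOR and the CASTOR proteins were measured. The arginine sensor gene Castor1 was higher in WT MEFs, at the 2-fold limit (1.004; -0.38 in p53-/-), and its relative Castor2 had -0.96 in WT MEFs. In untreated p53-/- MEFs the Castor1 signal was 242, less than the brightest negative control of that array (250.1). Nprl3, a GATOR1 subunit gene, had 0.56 in WT and -0.90 in p53-/- MEFs, a difference of 1.47. Of 10 measured genes for RAG GTPases, Ragulator and folliculin, 0 passed 2-fold in either genotype, with ratios of -0.80 (Fnip2) to 0.63 (Rraga) in WT MEFs.

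In the growth factor branch, Irs2, an adaptor of the insulin receptor, was higher with doxorubicin in both genotypes (1.16 in WT and 1.28 in p53-/-). The receptor genes Insr (-1.44 in WT) and Igf1r (-1.27 in WT and -2.11 in p53-/-) were lower. Among 13 genes for proteins that mTORC1 controls, Lpin1, which encodes the phosphatidate phosphatase lipin 1, had the largest ratio in WT MEFs, at 1.84, against -0.56 in p53-/- MEFs. The lowest were Eef2k in WT (-1.34) and Grb10 in p53-/- MEFs (-1.91). Of 7 genes for 14-3-3 proteins, which bind phosphorylated partners, Sfn was higher in WT MEFs (3.03; 0.60 in p53-/-) and the others stayed within 2-fold.

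Lists for other known inputs to these genes were read in the same way. Of 13 genes of the ATF4 pathway, the arm of the stress response that can induce Sesn2 and Ddit4, 0 were higher and 7 lower with doxorubicin in WT MEFs (median -1.02), from -4.003 for the pseudokinase gene Trib3 to -0.08 for Slc3a2. In p53-/- MEFs 4 were lower, with Trib3 at -3.03, and 1 was higher, Atf3 at 2.14. Asns, for asparagine synthetase, had -1.80 and -1.93. The median in p53-/- MEFs was -0.49. Beside these values, Sesn2 had 0.73 in WT and -1.34 in p53-/- MEFs and Ddit4 0.15 and -1.31. The part of the ATF4 pathway in the Sesn2 and Ddit4 ratios was not tested.

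Of 9 measured hypoxia-inducible genes, 2 were higher and 2 lower in WT MEFs (median -0.65, from Bnip3 at -1.501 to Egln3 at 1.40), and in p53-/- MEFs 2 were higher and 2 lower (median -0.71, from Vegfa at -1.08 to Egln3 at 1.76). Of 7 FoxO factors and targets, Foxo6 was higher (3.67) and Klf2 lower (-2.61) in WT MEFs, and 2 were higher in p53-/- MEFs, with Txnip at 2.50. Of 6 glucocorticoid-induced genes, Fkbp5 was lower in WT (-1.58) and 2 were higher in p53-/- MEFs, with Sgk1 at 1.30. Of 7 genes for sestrin partners and antioxidant links, Srxn1, which encodes the sulfiredoxin that repairs peroxiredoxins, was higher in WT MEFs (1.91; 0.20 in p53-/-), and Sqstm1, which encodes the sestrin-binding adaptor p62, in p53-/- MEFs (1.10). As a reference, 4 p53 target genes were all at least 2-fold higher in WT MEFs (1.11 for Bax to 2.08 for Cdkn1a), while in p53-/- MEFs Cdkn1a alone was (2.23).

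**Figure D5:**
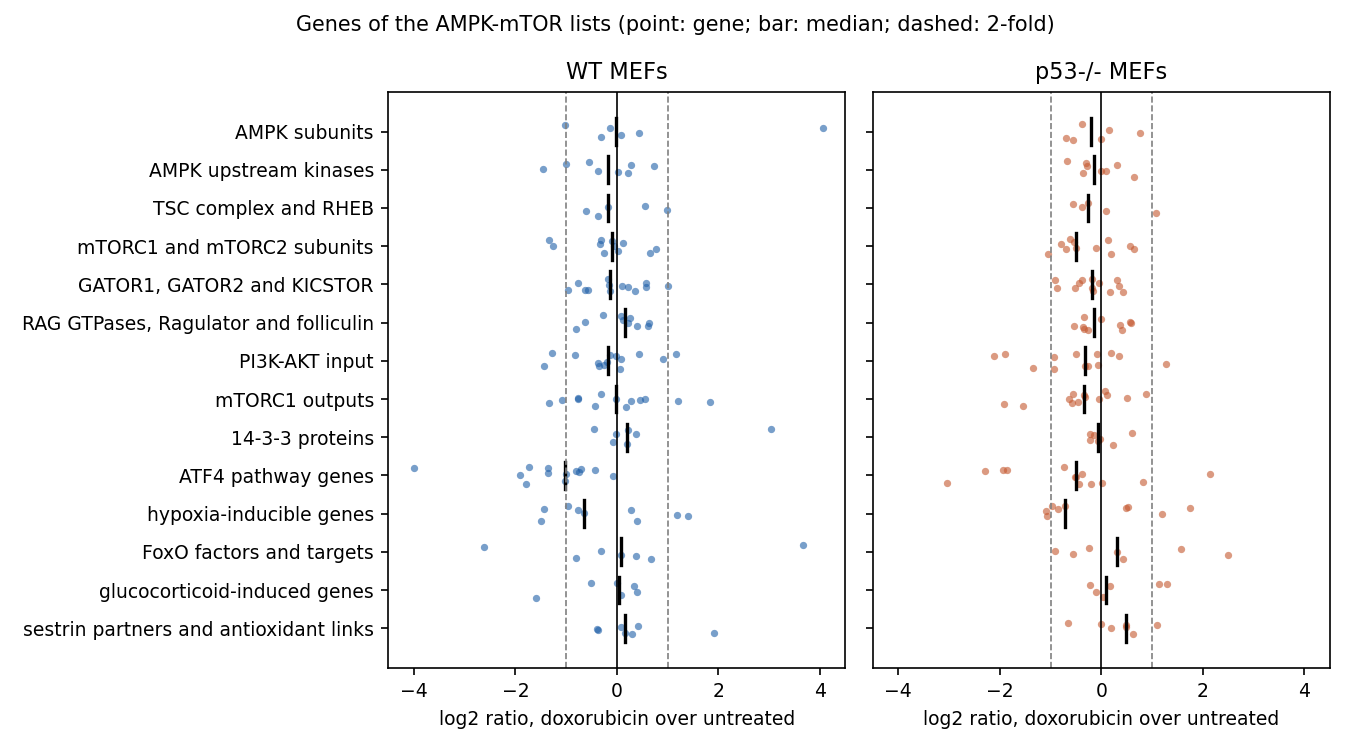
Log2 ratio of doxorubicin-treated over untreated MEFs (horizontal axes) for the genes of 14 lists (vertical axis, the 9 genes included where they belong) in WT (left) and p53-/- MEFs (right). Each point is 1 gene, black bars are medians and dashed lines mark 2-fold. The ATF4 list lies lowest in WT MEFs (median -1.02), and single genes stand out in WT only, Prkaa2 at 4.05, Sfn at 3.03 and Foxo6 at 3.67.

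Genes with the most similar profiles were sought among 16512 others, by the Euclidean distance over the 3 log2 ratios to untreated WT MEFs. Named genes nearest to Sesn2 were Abat at a distance of 0.25, Chchd10 at 0.42 and Apaf1 at 0.46, and 5 genes or transcripts in all lay within 0.5. For Ddit4 they were Cxcl14 at 0.19, Sulf2 at 0.51 and Apaf1 at 0.62, with 1 within 0.5. Nearest to Ddit4l was Cpz at 0.13, the 1 gene within 0.5, and Celf5 lay at 1.28. Sesn3 had Il4ra at 0.17, Ropn1l at 0.20 and Wrn at 0.20, with 69 within 0.5. Sesn1, with its small ratios, had 2675 others within 0.5, the nearest named genes being Plaa, Kmt5c and Uts2r at 0.05 to 0.06. Profiles over 4 single arrays are a description only.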

How the data were processed

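The arrays measured RNA of WT and p53-/- MEFs, without and with doxorubicin, 1 array each. The authors labeled 200 ng of total RNA with Cy3 and hybridized it to 4 one-color Agilent mouse arrays. Agilent Feature Extraction (10.7.3.1, per the submitters' processing notes) subtracted the background of the deposited spot intensities and removed trends within an array. The intensities were not normalized between arrays. A deposited table of intensities was equal to the scanner files, with no tolerance (exactly), at all 43020 non-control spots. Deposited flags coded by that program mark outliers, saturation and spots well above background. The methods name Subio software for fold changes, which were not used. Probe positions are mm9, and promoters and gene names are RefSeq (GRCm38.p6). Exon and UTR annotation was not used here.

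Outlier spots (145 to 168 per array) were left out, 0 spots were saturated, repeat spots were averaged on the log2 scale, and values were taken relative to the array's own 75th percentile (Python 3.11.15, numpy 2.4.6, pandas 2.3.3). Where a gene had several probes, the one with the highest mean stood for it, and 30180 probes were matched to RefSeq while 9249 kept the name in the files. A probe with repeat spots was well above background where more than 50% of them were, a ratio needed both arrays well above background, and "at least 2-fold" was the limit for counts. The number of arrays limits the precision. Repeat spots had an SD of 0.06 on the log2 scale, or 0.08 for a ratio. In all, 10 alternatives were computed, with normexp (offset 50) in limma 3.58.1. The scaling, ratio and count steps were tested on simulated data, with changes past the 2-fold limit in genes with bright probes. The background filter, normexp and dim spots were not part of that test. The genes followed, the gene lists and the named genes (the largest and smallest ratio of each list, the genes nearest in profile and Trp53, Cdkn1a and Mdm2 as checks) were chosen with earlier results of these data known. Genes named beyond that rule, such as those counted in the pathway, were chosen after their values were seen. A few genes that the rule names are not reported here. Mdm2 had log2 ratios with doxorubicin of 2.00 in WT and 0.47 in p53-/- MEFs.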

Additional observations from a re-analysis of the deposited data

Results flagged for a closer look

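Responses in opposite directions, each at least 1.5-fold, were seen for Sesn2 and Ddit4l. Sesn2 was 1.65-fold higher with doxorubicin in WT and 2.54-fold lower in p53-/- MEFs, a difference of 2.07 on the log2 scale. Ddit4l was 7.83-fold higher and 1.86-fold lower, a difference of 3.86. With 1 array per condition, neither difference was tested. Each lost the 1.5-fold limit under 1 alternative, as the Sesn2 ratio in WT MEFs was 0.45 on the log2 scale with scaling to the array median and the Ddit4l ratio in p53-/- MEFs was -0.56 with normexp, both still in the same direction. Over all genes, 474 of 16513 (2.87%) moved in opposite directions by this measure. The p53-/- signals of Ddit4l were 213 and 147, the first below the brightest negative control of its array (250.1).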

How the results depend on the processing

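No paired analysis was possible because each condition had 1 array. The 3 scalings and corrections gave 135 ratios for the members, of which 95 moved by less than the spread of repeat spots, 40 moved by more and 0 reversed while past 2-fold. Of 45 ratios, 41 kept their sign under the 3 scalings and corrections, and the other 4 were small (Ddit4 in WT and Tsc1 in p53-/- MEFs with doxorubicin, Prkab2 and Tsc2 between untreated genotypes). With a 1.5-fold limit, 3 members (Sesn2, Ddit4l and Tsc2) in place of 1 were higher with doxorubicin in WT and 1 (Prkab1) in place of 0 in p53-/- MEFs. With a 3-fold limit, 0 were lower in WT, 0 lower in p53-/-, 1 (Ddit4l) in place of 3 lay apart between untreated and 3 in place of 6 between treated genotypes (Sesn2, Ddit4 and Ddit4l), and the responses of 2 in place of 7 differed (Sesn2 and Ddit4l). Normexp left 0 in place of 2 lower in WT and 4 in place of 7 with differing responses, 4 in place of 6 apart between treated genotypes (without Prkab2 and Tsc2) and 2 in place of 3 between untreated genotypes (without Sesn2), as members near the limit moved inside it. Quantile normalization also left 2 between untreated genotypes. Scaling to the median and quantile normalization left 6 with differing responses (Prkab2 at -0.99 in both), and median scaling left 5 apart between treated genotypes (Prkab2 at 0.98). Requiring signals above the brightest negative control left 6 ratios of Ddit4l and Tsc2 unmeasured, so dim spots limit these genes. The deposited table, the mean of all probes, no filter and a filter on all 4 arrays could not move these values, since each member had 1 probe, well above background on all 4 arrays, and the table equals the files. A slide effect could not be fitted with a single slide.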

Other observations

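Outside the comparisons, Eif4ebp1, the gene of the mTORC1 substrate 4E-BP1, had log2 ratios with doxorubicin of 0.27 in WT and -0.45 in p53-/- MEFs, and Rps6kb1, the gene of the S6 kinase, had -0.76 and -0.57. Ulk1, the autophagy kinase gene that mTORC1 and AMPK both control at the protein level, had 1.21 and 0.51. Ddit3, the gene of the stress factor CHOP, had -0.71 and 0.83.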
